A study of Mus musculus with 17 samples.

Results

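Heat shock proteins are molecular chaperones: they bind unfolded or newly made proteins and help them fold, and several of them are made in larger amounts after heat or other stress. The 10 genes described here are a list of this class, given by gene name: the inducible HSP70 genes Hspa1a and Hspa1b, the constitutive HSP70 gene Hspa8, the HSP90 genes Hsp90aa1 and Hsp90ab1, the HSP110 gene Hsph1, the J-domain cochaperone Dnajb1, the small heat shock protein gene Hspb1, and the mitochondrial chaperonin genes Hspd1 and Hspe1. All 10 were found among the 24013 genes of the count table, and all 10 were among the 15451 genes with enough counts to be tested.

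The data are gene counts from RNA sequencing of 17 libraries, each made from sorted cells of the mouse testis. From adult animals came Kit-positive, TERT-high cells, which the labels call differentiated spermatogonia (KITpos, n = 5), and Kit-negative, TERT-high cells, called undifferentiated spermatogonia, either positive for the GDNF receptor GFRA1 (GFRA1pos, n = 4) or negative for it (GFRA1neg, n = 4). The last group were gonocytes of day 6 neonates that expressed TERT together with OCT4-GFP (P6gonocyte, n = 4). Every group carried the genotype Tert-Tomato/+, a reporter of the telomerase gene, on a mixed B6/J and B6/N background; the genotype label does not list the OCT4-GFP reporter. The labels do not say whether replicates came from separate animals or from pooled ones, so p-values measure the spread between these libraries, which may be technical.

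The chaperone system works as a relay. J-domain proteins such as DNAJB1 bring unfolded clients to HSP70 and start its ATP cycle, HSP110 proteins such as HSPH1 reset HSP70 by nucleotide exchange, and HSP90 takes over part of the clients, among them kinases and steroid receptors. Heat shock factor 1 (HSF1) switches on the inducible members through heat shock elements in their promoters, and germ cells have in addition their own HSP70 genes, such as Hspa2 of meiotic cells and Hspa1l of spermatids. Before sequencing all cells went through enzyme digestion, which for the tubules included trypsin for 15 min at 32 °C.

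Levels are given as CPM, the counts of a gene per 1000000 counts of the library after TMM scaling, and differences as log2 fold changes with standard errors from edgeR, called at an adjusted p under 0.05 over all genes tested. The libraries held 5178352 to 8300165 counts in KITpos, 10918223 to 11567191 in GFRA1pos, 9965437 to 12641907 in GFRA1neg and 6479216 to 8468203 in P6gonocyte. The 10 genes together took 0.532% to 0.724% of the counts in KITpos, 0.460% to 0.540% in GFRA1pos, 0.446% to 0.556% in GFRA1neg and 1.06% to 1.16% in P6gonocyte. A single row, the most abundant of the table and without a gene symbol, took 15.2% to 29.3%, 23.3% to 29.8%, 23.8% to 29.9% and 9.62% to 14.6% of the counts in the same 4 groups. The sort gene Gfra1 had 0.840 to 7.19 CPM in KITpos, 355 to 425 CPM in GFRA1pos, 18.6 to 25.6 CPM in GFRA1neg and 118 to 157 CPM in P6gonocyte. The summed level of 8 markers of undifferentiated spermatogonia had medians of 272 CPM in KITpos, 2369 CPM in GFRA1pos, 1811 CPM in GFRA1neg and 1228 CPM in P6gonocyte. The summed level of 11 spermatid markers had medians of 717, 723 and 634 CPM in KITpos, GFRA1pos and GFRA1neg, with single libraries up to 2045 CPM, and 15.0 CPM in P6gonocyte, where the protamine gene Prm1 was at 0 in all 4 libraries. P6gonocyte replicate 2 stood apart, with 486 CPM of summed Sertoli cell markers against a median of 241 CPM in its group. The count of members called with the libraries that stand apart left out is given beside each comparison below, and fewer cells of a type and less RNA per cell cannot be told apart in such bulk libraries.

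Hspa1a and Hspa1b were the members that set the GFRA1neg cells apart. Both were higher in GFRA1neg than in each of the other 3 groups, by 4.36-fold to 10.4-fold for Hspa1a and 2.42-fold to 3.79-fold for Hspa1b, and they were the only 2 members called between GFRA1pos and GFRA1neg, both lower in GFRA1pos. The abundant members Hspa8, Hsp90aa1, Hsp90ab1 and Hspd1 were highest in P6gonocyte and lower in each adult group. KITpos had more Hsp90aa1, Hspe1 and Hspb1, and less Dnajb1, than either Kit-negative group; Leydig cell markers were also higher there, 5 of 7 tested against GFRA1pos and 6 of 7 against GFRA1neg (median log2 fold changes 2.99 and 3.22), and their part in these differences was not tested. A test of any difference among the 4 groups passed for 9 of the 10 members, where 73.5% of all genes passed it; the tenth, Hsph1, had adjusted p = 0.0571.

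**Figure D1:**
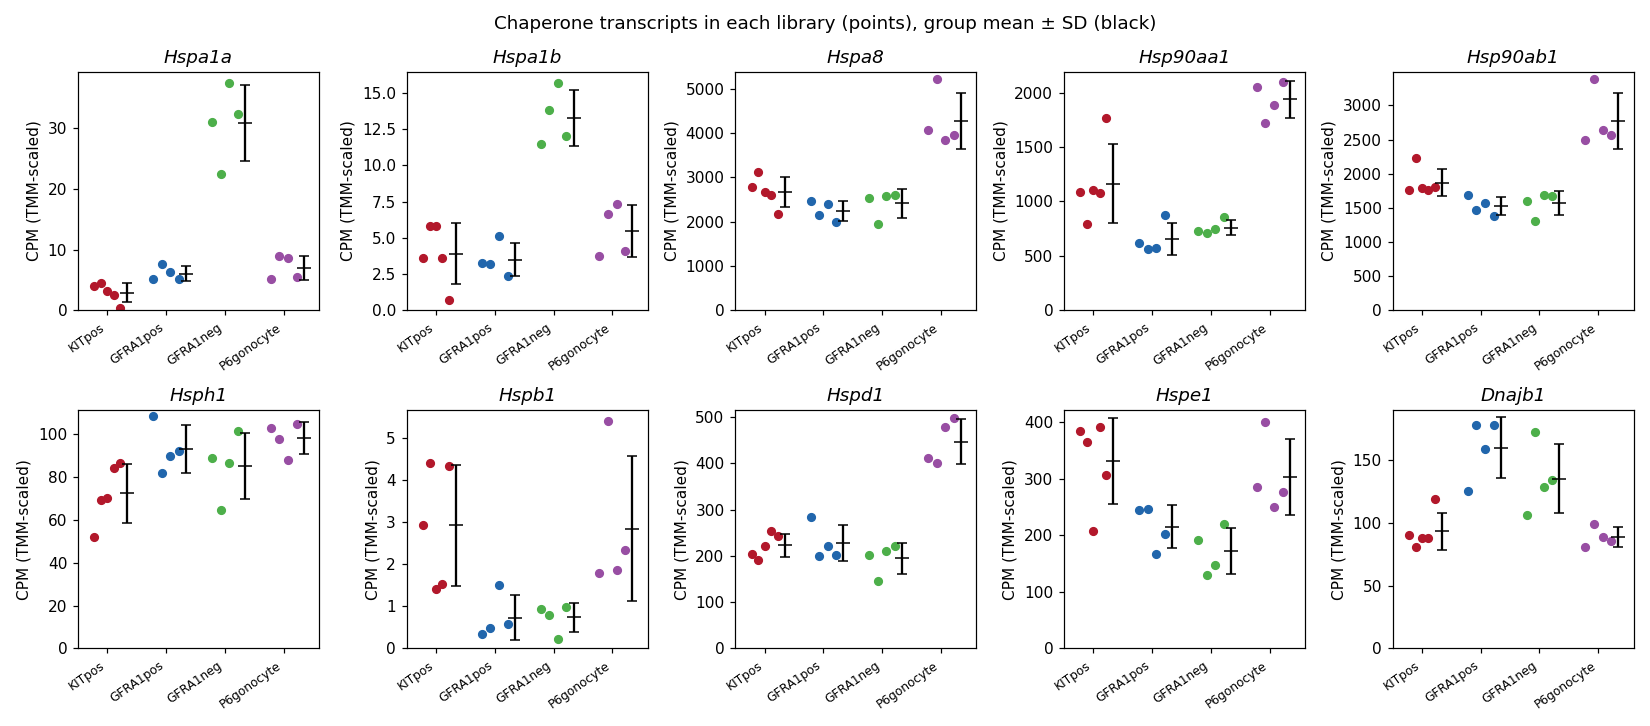
Level of each of the 10 chaperone genes (CPM, linear axes from 0, 1 panel per gene) in every library, with groups along the horizontal axis. Coloured points are libraries and black marks are the group mean ± SD (n = 5 in KITpos and 4 in the other groups); the GFRA1neg points of Hspa1a, from 22.5 to 37.4 CPM, lie above all other libraries, and the P6gonocyte points of Hspd1, from 401 to 497 CPM, do too.

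Of the 10 members, 5 passed between KITpos and GFRA1pos, 3 higher and 2 lower, where 48.6% of all genes passed, 24.9% higher and 23.7% lower. Between KITpos and GFRA1neg 6 passed, 3 higher and 3 lower, where 45.1% of all genes passed, 22.1% higher and 23% lower. Between GFRA1pos and GFRA1neg 2 passed, both lower, where 14.1% of all genes passed, 7.3% higher and 6.84% lower. The count between KITpos and GFRA1pos is near its background. The 2 members called between GFRA1pos and GFRA1neg are the near copies Hspa1a and Hspa1b, which gave 1 call when summed to a single row. Whether the counts of the 3 adult comparisons differ from their backgrounds was not tested, and 10 members are few for such a count. With the 4 libraries highest in spermatid markers left out, the counts were 2, 5 and 1 in these comparisons.

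Against P6gonocyte most of the called members were lower in the adult groups. In KITpos 6 members were lower and the other 4 were not called, where 49.1% of all genes passed, 27.3% higher and 21.8% lower. In GFRA1pos 5 were lower and 1 higher, where 39.2% passed, 21.9% higher and 17.3% lower. In GFRA1neg 6 were lower and 3 higher, where 43.6% passed, 24.9% higher and 18.8% lower. The median log2 fold change of the 10 members was -0.52, -0.76 and -0.82 in KITpos, GFRA1pos and GFRA1neg against P6gonocyte, beside 0.09, 0.05 and 0.09 over all genes tested. The 3 comparisons share the P6gonocyte libraries and are not independent of each other. Spermatid markers were higher in the adult groups in each of them, 10 of 11 markers passing each time; with the 4 libraries highest in these markers left out, 6, 5 and 8 members passed. Sertoli cell markers were lower in KITpos, GFRA1pos and GFRA1neg than in P6gonocyte for 8, 7 and 7 of 10 tested, and 1 was higher in KITpos. Without P6gonocyte replicate 2 the counts of members were again 6, 5 and 8.

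**Figure D2:**
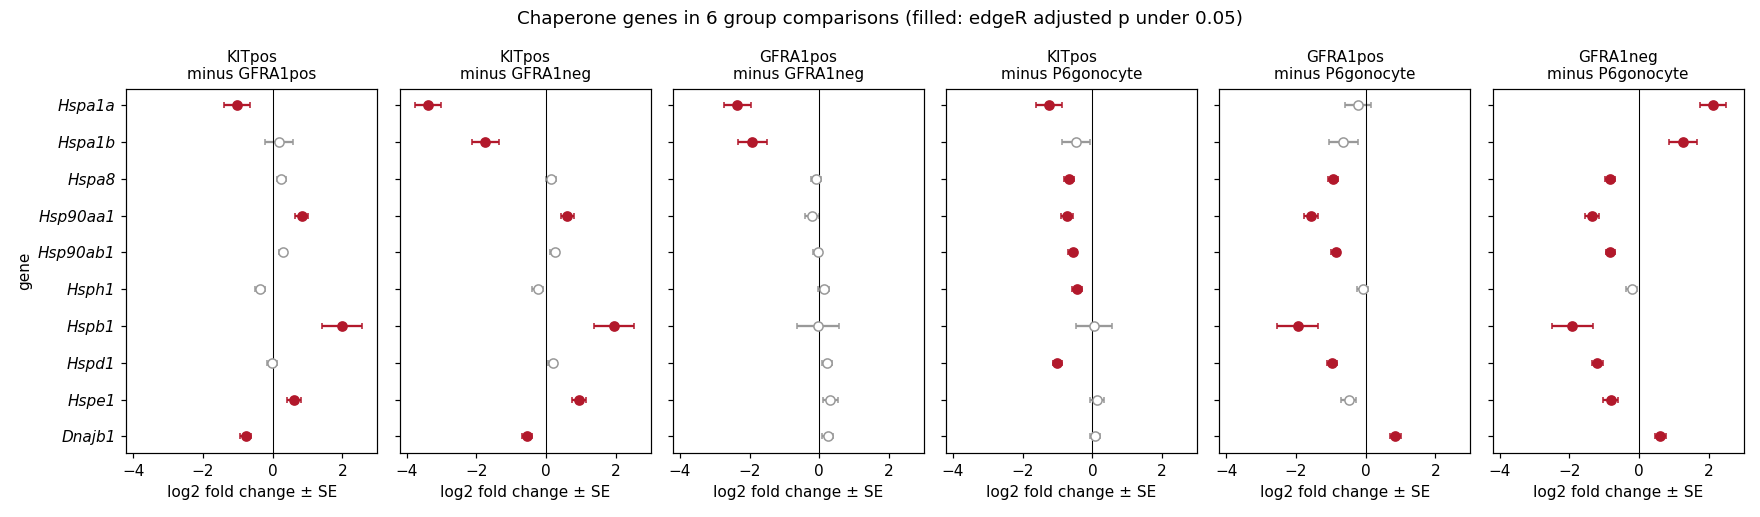
Log2 fold change ± SE of each chaperone gene in the 6 comparisons, the first-named group minus the second, on a shared horizontal axis. Filled points passed edgeR's test at an adjusted p under 0.05 and open points did not; Hspa1a lies at -3.38 for KITpos minus GFRA1neg and at 2.12 for GFRA1neg minus P6gonocyte.

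Hspa1a and Hspa1b encode nearly the same protein, the stress-inducible cytosolic HSP70. Hspa1a had 3.92, 4.52, 3.11, 2.56 and 0.346 CPM in the 5 KITpos libraries, 5.15, 7.61, 6.24 and 5.15 CPM in GFRA1pos, 31.0, 22.5, 37.4 and 32.4 CPM in GFRA1neg, and 5.14, 8.90, 8.59 and 5.50 CPM in P6gonocyte. All 4 GFRA1neg libraries were above every other library, and KITpos was below both GFRA1pos and P6gonocyte without overlap. The log2 fold change was -3.38 ± 0.37 for KITpos minus GFRA1neg (adjusted p = 6.66e-07), -2.35 ± 0.38 for GFRA1pos minus GFRA1neg (adjusted p = 0.000274) and 2.12 ± 0.38 for GFRA1neg minus P6gonocyte (adjusted p = 0.000235). In linear terms the level was 10.4-fold lower in KITpos and 5.10-fold lower in GFRA1pos than in GFRA1neg, and 4.36-fold higher in GFRA1neg than in P6gonocyte. KITpos was also lower than P6gonocyte, by a log2 fold change of -1.25 ± 0.37 (adjusted p = 0.0093). Against GFRA1pos KITpos was lower at -1.03 ± 0.37 (adjusted p = 0.0275), a call lost under 7 of 29 alternatives, among them leaving out GFRA1pos replicate 2 (adjusted p = 0.077), GFRA1pos replicate 3 (adjusted p = 0.052) or KITpos replicate 4 (adjusted p = 0.0516). GFRA1pos and P6gonocyte were not called apart (-0.23 ± 0.37, adjusted p = 0.663).

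Hspa1b was also highest in GFRA1neg, at lower levels. It averaged 3.91 ± 2.1 CPM in KITpos, 3.50 ± 1.2 CPM in GFRA1pos, 13.3 ± 1.9 CPM in GFRA1neg and 5.46 ± 1.8 CPM in P6gonocyte (SD; n = 5, 4, 4 and 4). The 4 GFRA1neg libraries, at 11.5 to 15.7 CPM, again lay above all the others, whose highest value was 7.35 CPM. The log2 fold change was -1.74 ± 0.39 for KITpos minus GFRA1neg (adjusted p = 0.00111) and -1.92 ± 0.42 for GFRA1pos minus GFRA1neg (adjusted p = 0.00367). For GFRA1neg minus P6gonocyte it was 1.27 ± 0.41 (adjusted p = 0.0165), which missed the threshold without P6gonocyte replicate 1 (adjusted p = 0.0559) or replicate 4 (adjusted p = 0.053). The call between GFRA1pos and GFRA1neg was lost with the 4 spermatid-rich libraries left out (-1.59, adjusted p = 0.0883). The other 3 groups were not called apart for this gene.

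The split of reads between these genes is uncertain, because they are near copies. Their coding sequences were identical at 99.6% of aligned bases, and 46.9% of the 101-base windows of the Hspa1a transcript also occur in Hspa1b, the read length being 101 bases. Summed to a single row, the pair averaged 6.80 ± 3.6 CPM in KITpos, 9.54 ± 1.9 CPM in GFRA1pos, 44.1 ± 7.0 CPM in GFRA1neg and 12.5 ± 3.8 CPM in P6gonocyte. The sum was lower than GFRA1neg in KITpos (-2.67 ± 0.36, adjusted p = 6.41e-06) and in GFRA1pos (-2.21 ± 0.38, adjusted p = 0.000456), and higher in GFRA1neg than in P6gonocyte (1.81 ± 0.37, adjusted p = 0.000752). The sum did not pass between KITpos and GFRA1pos (-0.47 ± 0.36, adjusted p = 0.301) or between KITpos and P6gonocyte (-0.86 ± 0.36, adjusted p = 0.0527), where Hspa1a alone had passed. Hspa1a took 41.1% ± 7.5 of the counts of both genes in KITpos, 63.7% ± 7.1 in GFRA1pos, 69.6% ± 5.2 in GFRA1neg and 56.6% ± 1.8 in P6gonocyte, and the KITpos libraries, from 33.3% to 51.9%, were below every other library. The KITpos shares rest on few counts, down to 2 of 6 in replicate 5, whose exact binomial interval runs from 4.33% to 77.7%.

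**Figure D3:**
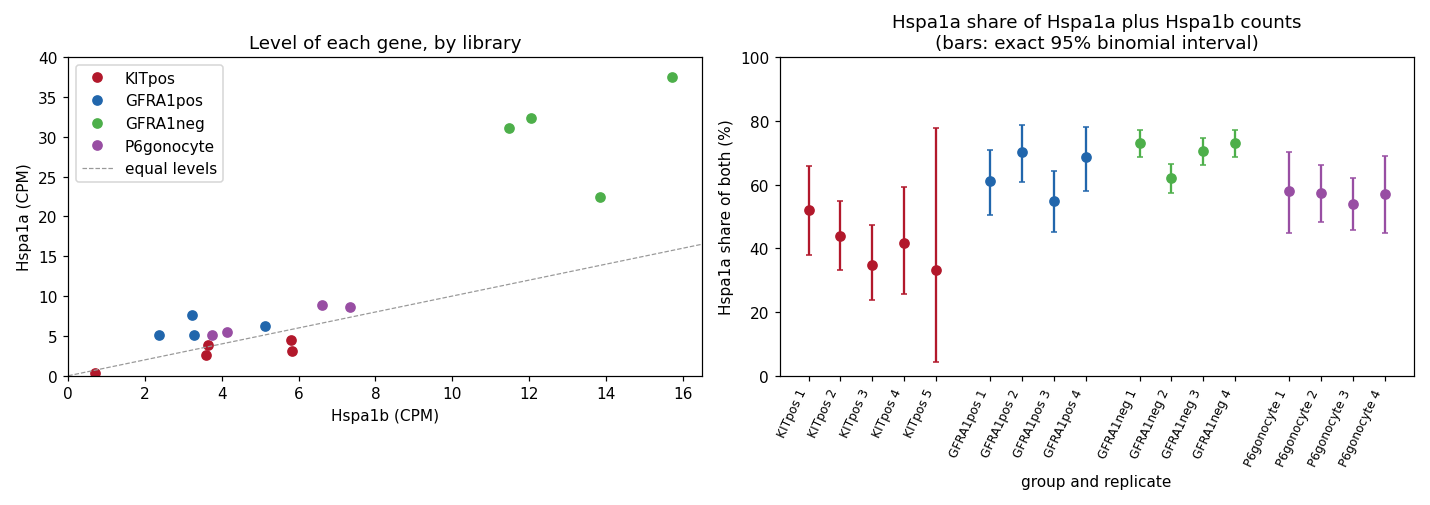
Left, Hspa1a against Hspa1b in CPM for each of the 17 libraries, with a dashed line where both are equal. Right, the percentage of Hspa1a among the counts of both genes in each library with its exact 95% binomial interval, which covers counting error only; the GFRA1neg libraries lie between 61.9% and 73.0% and the KITpos libraries between 33.3% and 51.9%.

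The 250 bases before the annotated starts of these genes differ at only 3 positions, C44T, T47C and T249G, written as the Hspa1a base, its position from 1 at the 5′ end, and the Hspa1b base. They are shown because this near identity is what the pair shares upstream of the transcript. Capitals mark the match to the inverted heat shock element GAANNTTC, which lies 104 to 97 bases before each start. The sequences are from RefSeq on GRCm38.p6, at chr17:34972157-34972406 for Hspa1a and chr17:34959239-34959488 for Hspa1b, each on the minus strand and read 5′ to 3′ toward the gene.
Hspa1a: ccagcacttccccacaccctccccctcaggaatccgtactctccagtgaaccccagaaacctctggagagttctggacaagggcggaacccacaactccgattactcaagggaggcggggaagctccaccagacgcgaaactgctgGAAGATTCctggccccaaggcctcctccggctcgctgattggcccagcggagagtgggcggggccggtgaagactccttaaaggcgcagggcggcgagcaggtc
Hspa1b: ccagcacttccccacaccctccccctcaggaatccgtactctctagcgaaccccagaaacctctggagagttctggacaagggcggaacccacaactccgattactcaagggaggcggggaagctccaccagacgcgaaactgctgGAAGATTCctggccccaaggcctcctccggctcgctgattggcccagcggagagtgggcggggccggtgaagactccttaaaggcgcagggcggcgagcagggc
Each window also holds an inverted CCAAT box (ATTGG) 67 to 63 bases before the start.

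Hspa8, the constitutive HSP70 and the most abundant member, was highest in the neonatal cells. It had 2774, 3113, 2679, 2599 and 2165 CPM in KITpos, 2463, 2146, 2394 and 1982 CPM in GFRA1pos, 2526, 1939, 2579.8 and 2607 CPM in GFRA1neg, and 4072, 5222, 3840.1 and 3958 CPM in P6gonocyte. Every P6gonocyte library was above every adult library, while the adult groups overlapped and were not called apart. The log2 fold change against P6gonocyte was -0.68 ± 0.14 in KITpos (adjusted p = 0.000522), -0.93 ± 0.15 in GFRA1pos (adjusted p = 0.000127) and -0.82 ± 0.15 in GFRA1neg (adjusted p = 0.00023). Without P6gonocyte replicate 2, the highest library and the one rich in Sertoli markers, the values were -0.58, -0.82 and -0.72 and all 3 passed. Of the 101-base windows of the Hspa8 transcript, 62.6% also occur in another gene, mostly the pseudogene Gm15459, so its counts may include or lack reads of such copies.

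Both HSP90 genes were likewise highest in P6gonocyte. Hsp90ab1, the constitutive form, averaged 1869 ± 200.1 CPM in KITpos, 1527 ± 131 CPM in GFRA1pos, 1570.0 ± 176 CPM in GFRA1neg and 2777 ± 412 CPM in P6gonocyte, and the lowest P6gonocyte library, at 2501 CPM, was above the highest adult library at 2226 CPM. Its log2 fold change against P6gonocyte was -0.57 ± 0.13 in KITpos (adjusted p = 0.00106), -0.86 ± 0.13 in GFRA1pos (adjusted p = 0.00011) and -0.82 ± 0.13 in GFRA1neg (adjusted p = 0.00011). The KITpos libraries also lay above both Kit-negative groups without overlap, but neither difference passed: it was 0.29 ± 0.13 over GFRA1pos (adjusted p = 0.0634) and 0.25 ± 0.13 over GFRA1neg (adjusted p = 0.115), and they passed under 3 and 1 of 29 alternatives. No 101-base window of Hsp90ab1 occurs in another gene.

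Hsp90aa1, the stress-responsive form of HSP90, differed more between groups. It had 1085, 793, 1101, 1073 and 1769 CPM in KITpos, 616, 563, 575 and 871 CPM in GFRA1pos, 725, 709, 747 and 855 CPM in GFRA1neg, and 2053, 1723, 1886 and 2096 CPM in P6gonocyte. KITpos replicate 5 reached into the P6gonocyte range and KITpos replicate 2 into the range of the Kit-negative groups, so KITpos stood between the neonatal and the Kit-negative adult cells with overlap on both sides. KITpos was higher than GFRA1pos by 0.83 ± 0.18 (adjusted p = 0.00106) and than GFRA1neg by 0.62 ± 0.18 (adjusted p = 0.00981), and lower than P6gonocyte by a log2 fold change of -0.74 ± 0.18 (adjusted p = 0.0025). Against P6gonocyte, GFRA1pos was at -1.56 ± 0.20 (adjusted p = 1.98e-05) and GFRA1neg at -1.35 ± 0.19 (adjusted p = 3.77e-05), and here the libraries did not overlap. GFRA1pos and GFRA1neg were not called apart (-0.21 ± 0.19, adjusted p = 0.539). Nearly as much of this transcript is shared as of Hspa1a, 47.3% of its windows, mostly with Gm12346.

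Dnajb1, a J-domain partner of inducible HSP70, was highest in the Kit-negative adult cells. It had 90.3, 81.1, 88.1, 88.0 and 119 CPM in KITpos, 126, 178, 159 and 178 CPM in GFRA1pos, 106, 173, 128 and 134 CPM in GFRA1neg, and 81.1, 99.4, 89.1 and 85.3 CPM in P6gonocyte. Both Kit-negative groups lay above P6gonocyte without overlap, and GFRA1pos also lay above KITpos without overlap. KITpos was lower than GFRA1pos by a log2 fold change of -0.78 ± 0.15 (adjusted p = 0.00022) and than GFRA1neg by -0.54 ± 0.15 (adjusted p = 0.00545). GFRA1pos was higher than P6gonocyte by 0.85 ± 0.16 (adjusted p = 0.000425) and GFRA1neg by 0.61 ± 0.16 (adjusted p = 0.00406). With the 4 spermatid-rich libraries left out, the GFRA1neg differences fell short of the threshold, at -0.37 (adjusted p = 0.0638) for KITpos minus GFRA1neg and 0.40 (adjusted p = 0.0518) for GFRA1neg minus P6gonocyte. Dnajb1 was not called between GFRA1pos and GFRA1neg (0.24 ± 0.15, adjusted p = 0.347), where Hspa1a differed 5.10-fold.

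Hsph1, the HSP110 nucleotide exchange factor, was called in 1 of the 6 comparisons. It averaged 72.5 ± 14 CPM in KITpos, 93.1 ± 11 CPM in GFRA1pos, 85.4 ± 15 CPM in GFRA1neg and 98.4 ± 7.6 CPM in P6gonocyte. The call was KITpos against P6gonocyte at -0.44 ± 0.15 (adjusted p = 0.0206), with the KITpos libraries, from 52.1 to 86.6 CPM, all below the P6gonocyte libraries, from 87.9 to 105 CPM. That call was lost without KITpos replicate 1 (adjusted p = 0.0535) or P6gonocyte replicate 4 (adjusted p = 0.0532). Against GFRA1pos, KITpos was at -0.36 ± 0.15 (adjusted p = 0.0531), just outside the threshold, with a 95% interval from -0.66 to -0.07; it passed under 13 of 29 alternatives, among them RLE scaling (adjusted p = 0.0214), DESeq2 (adjusted p = 0.0204) and limma voom (adjusted p = 0.0424).

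Hspb1, whose product HSP25 (HSP27 in human) holds unfolded proteins without using ATP, was scarce in every group. It had 2.94, 4.41, 1.43, 1.54 and 4.33 CPM in KITpos, 0.355, 0.488, 1.51 and 0.591 CPM in GFRA1pos, 0.941, 0.800, 0.231 and 0.987 CPM in GFRA1neg, and 1.81, 5.41, 1.86 and 2.34 CPM in P6gonocyte. Both Kit-negative groups were low; P6gonocyte lay above both without overlap and KITpos above GFRA1neg without overlap. KITpos was higher than GFRA1pos by 1.99 ± 0.57 (adjusted p = 0.00727) and than GFRA1neg by 1.95 ± 0.57 (adjusted p = 0.00871). GFRA1pos was lower than P6gonocyte at -1.95 ± 0.59 (adjusted p = 0.0135) and GFRA1neg at -1.91 ± 0.59 (adjusted p = 0.0129). Both of the last calls were lost without P6gonocyte replicate 2 (-1.44 with adjusted p = 0.0706, and -1.41 with adjusted p = 0.0708), and without the spermatid-rich libraries the calls of KITpos over GFRA1pos (1.62, adjusted p = 0.107) and of GFRA1pos against P6gonocyte (-1.64, adjusted p = 0.134) were lost. Markers of other cell types also differed between these groups, not always in the same direction as Hspb1. The summed level of 8 Leydig cell markers was 23.0 to 105 CPM in KITpos, 14.02 to 25.7 CPM in GFRA1pos, 9.77 to 26.9 CPM in GFRA1neg and 15.7 to 27.3 CPM in P6gonocyte, with 5 of 7 tested markers higher in KITpos than in GFRA1pos and 6 of 7 higher than in GFRA1neg. That of 12 Sertoli cell markers was 91.3 to 145 CPM in KITpos, 165 to 189 CPM in GFRA1pos, 90.0 to 123 CPM in GFRA1neg and 227 to 486 CPM in P6gonocyte. A single marker, Ctsl, made up 149 to 173 CPM of this sum in GFRA1pos. Of 10 Sertoli markers tested, 1 was higher and 1 lower in KITpos than in GFRA1pos (24.9% and 23.7% of all genes). Against GFRA1neg, 4 were higher and 1 lower in KITpos (22.1% and 23% of all genes). The part of such cells in the Hspb1 levels was not tested, and 56.3% of its windows are shared with the pseudogene Hsp25-ps1.

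Hspd1 and Hspe1 encode HSP60 and its lid HSP10, which together form the folding chamber of the mitochondrial matrix. Hspd1 had 205, 192, 221, 253 and 243 CPM in KITpos, 284, 200.5, 221 and 203 CPM in GFRA1pos, 202, 147, 211 and 221 CPM in GFRA1neg, and 411, 401, 478 and 497 CPM in P6gonocyte. The neonatal libraries were all above the adult ones, and the adult groups overlapped. Against P6gonocyte the log2 fold change was -1.01 ± 0.14 in KITpos (adjusted p = 1.75e-05), -0.98 ± 0.15 in GFRA1pos (adjusted p = 9.37e-05) and -1.19 ± 0.15 in GFRA1neg (adjusted p = 1.01e-05), and each held under every alternative tried. No adult pair was called apart, the largest difference being 0.22 ± 0.15 for GFRA1pos minus GFRA1neg (adjusted p = 0.379).

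Hspe1 was called between KITpos and each Kit-negative group, where Hspd1 was not; whether the changes of the pair differed was not tested. It had 384, 365, 208, 392 and 308 CPM in KITpos, 245, 247, 167 and 203 CPM in GFRA1pos, 192, 130.2, 147 and 221 CPM in GFRA1neg, and 285, 402, 250.3 and 278 CPM in P6gonocyte. KITpos and P6gonocyte overlapped and were not called apart (0.13 ± 0.20, adjusted p = 0.621, 95% interval from -0.26 to 0.51), and replicate 3 was the only KITpos library inside the range of the Kit-negative groups. KITpos was higher than GFRA1pos by 0.62 ± 0.20 (adjusted p = 0.0144) and than GFRA1neg by 0.94 ± 0.20 (adjusted p = 0.000746), the first of these lost without GFRA1pos replicate 3 (adjusted p = 0.0602) or without the 4 spermatid-rich libraries (0.58, adjusted p = 0.0621). GFRA1neg was lower than P6gonocyte at -0.82 ± 0.21 (adjusted p = 0.00404). GFRA1pos was at -0.49 ± 0.21 against P6gonocyte, which did not pass (adjusted p = 0.0661) although the libraries did not overlap, and which passed under 4 of 29 alternatives.

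Hspd1 and Hspe1 lie head to head, and the sequence between their starts is shown because both genes share it as their upstream sequence. The stretch is 215 bases on chr1:55087933-55088147 (RefSeq, GRCm38.p6), printed on the plus strand, so that Hspe1 starts after its right end and Hspd1 runs leftward from its left end. Capitals mark 3 overlapping heat shock element matches in a row, TTCNNGAA, GAANNTTC and TTCNNGAA.
Hspd1-Hspe1 interval: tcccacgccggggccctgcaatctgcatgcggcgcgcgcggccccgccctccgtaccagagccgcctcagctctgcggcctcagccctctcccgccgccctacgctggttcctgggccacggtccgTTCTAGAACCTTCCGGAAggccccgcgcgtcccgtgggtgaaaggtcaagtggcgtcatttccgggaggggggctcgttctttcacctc
The matches span 89 to 72 bases before the Hspe1 start and 144 to 127 bases before the nearer Hspd1 start. A second annotated start of Hspd1 had no match in its window.

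RefSeq promoter windows were at hand for 7 of the 10 members, with 10 windows in all; Hspa8, Hsp90aa1 and Hsp90ab1 were not matched. In the 250 bases before the start, 7 of the 10 windows held GAANNTTC or TTCNNGAA, against 12.8% of 32851 windows of all genes. GAANNTTC alone was in 6.69% of all windows and TTCNNGAA in 7.17%. A run of 3 or more alternating GAA and TTC units, which the shared Hspd1 and Hspe1 interval holds, was in 0.466%. Both motifs read the same on either strand, and they overlap each other in such runs. Hspb1 had 2 GAANNTTC matches, at 117 to 110 and 97 to 90 bases before its start. The 2 windows of Hsph1 overlap and hold the same TTCNNGAA, and neither Dnajb1 window held a match. CCAAT or its complement ATTGG was in 33.8% of all windows and in those of Hspa1a, Hspa1b, Hsph1 and 1 of 2 of Dnajb1. The windows are not independent, since Hspd1 and Hspe1 share theirs and those of Hspa1a and Hspa1b are near copies. A match of letters does not show that a factor binds there.

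**Figure D4:**
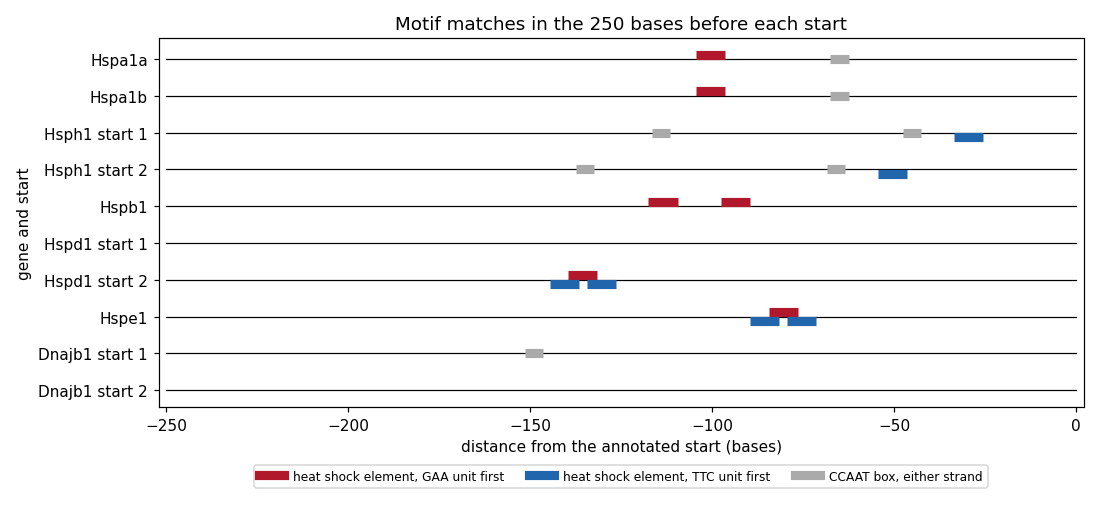
Motif matches in the 250 bases before each annotated start of 7 chaperone genes (horizontal axis, distance from the start in bases; 1 line per start). Red and blue bars are heat shock element matches with the GAA or the TTC unit first and grey bars are CCAAT boxes on either strand; Hspd1 start 2 and Hspe1 show the same 3 matches from opposite sides.

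Per kilobase of transcript, genes can be compared roughly with each other. Hspa8 led in every group, with 1114 CPM per kb in KITpos, 938 in GFRA1pos, 1008 in GFRA1neg and 1785 in P6gonocyte. Hsp90ab1 was next with 742, 606, 623 and 1102 CPM per kb in the same groups. The inducible pair was far below: Hspa1a had 0.975 CPM per kb in KITpos, 2.03 in GFRA1pos, 10.4 in GFRA1neg and 2.37 in P6gonocyte.

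The genes whose log2(CPM + 1) over the 17 libraries was most like that of Hspa1a, among genes with at least 20 CPM in a group, were Neurog3 (Pearson r = 0.97), Rspo4 (0.96), Pfkfb3 (0.95), Foxr1 (0.95) and Sh3yl1 (0.95). Neurog3, a transcription factor known from Kit-negative progenitor spermatogonia, averaged 2.47 CPM in KITpos, 5.08 CPM in GFRA1pos, 39.3 CPM in GFRA1neg and 7.91 CPM in P6gonocyte; the averages of Hspa1a were 2.89, 6.04, 30.8 and 7.03 CPM in the same order. For Hspa8 they were Atp5a1 (0.97), Hsp90ab1 (0.97), Gars (0.94), Nlrp4c (0.93) and Aard (0.93), a Sertoli marker at 5.40, 1.84, 1.68 and 36.2 CPM in the 4 groups. For Hspd1 they were Rps6ka3 (0.96), Tardbp (0.95), Gtpbp4 (0.95), Bmpr1a (0.95) and Usp26 (0.94). The points are libraries of 4 groups, so the differences between groups enter every coefficient.

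Of 7 listed heat shock factors and their partners 5 were tested, and between GFRA1pos and GFRA1neg, where Hspa1a and Hspa1b were called, the smallest adjusted p was 0.285 (Hsf5, -0.86 ± 0.49). Hsf1, the main stress-activated factor, averaged 79.9 ± 6.8 CPM in KITpos, 75.3 ± 1.6 CPM in GFRA1pos, 87.0 ± 6.7 CPM in GFRA1neg and 76.6 ± 16 CPM in P6gonocyte, and was not called in any of the 6 comparisons. Hsf2, which works in development and in the testis, averaged 60.0 ± 8.1 CPM in KITpos, 47.5 ± 3.4 CPM in GFRA1pos, 52.4 ± 12 CPM in GFRA1neg and 83.2 ± 10 CPM in P6gonocyte, and was lower than P6gonocyte in KITpos (-0.47 ± 0.15, adjusted p = 0.0118), GFRA1pos (-0.81 ± 0.15, adjusted p = 0.000575) and GFRA1neg (-0.67 ± 0.15, adjusted p = 0.00191). Hsbp1, a protein that binds and restrains HSF1, was higher in KITpos, at 402 ± 67 CPM, than in GFRA1pos at 207 ± 42 CPM (0.95 ± 0.21, adjusted p = 0.000876) and GFRA1neg at 199 ± 44 CPM (1.01 ± 0.21, adjusted p = 0.000561).

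Among the 31 listed cochaperones of HSP70 and HSP90, 4 were higher and 15 lower in GFRA1pos than in P6gonocyte, where 21.9% of all genes were higher and 17.3% lower, with a median log2 fold change of -0.38 beside 0.05 over all genes. Against the same neonatal cells 3 were higher and 12 lower in KITpos (27.3% and 21.8% of all genes), and 5 higher and 11 lower in GFRA1neg (24.9% and 18.8%). Ppid, a cyclophilin that binds HSP90, averaged 53.0 ± 7.4 CPM in KITpos, 55.3 ± 14 CPM in GFRA1pos, 65.1 ± 17 CPM in GFRA1neg and 149 ± 4.8 CPM in P6gonocyte, and was lower in each adult group, at -1.50, -1.43 and -1.20 (adjusted p = 3.95e-06, 3.6e-05 and 9.8e-05). Bag3, a stress-inducible partner of HSP70 in autophagy, went the other way: it averaged 9.69 ± 4.5 CPM in KITpos, 30.0 ± 1.6 CPM in GFRA1pos, 20.4 ± 3.5 CPM in GFRA1neg and 8.86 ± 1.2 CPM in P6gonocyte. It was higher than P6gonocyte in GFRA1pos (1.76 ± 0.32, adjusted p = 0.000401) and in GFRA1neg (1.20 ± 0.32, adjusted p = 0.00526), as Dnajb1 was. Between GFRA1pos and GFRA1neg 2 of the 31 were higher and 5 lower (7.3% and 6.84% of all genes), among the lower Hikeshi, which carries HSP70 into the nucleus after heat (-0.97 ± 0.16, adjusted p = 0.000463).

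The cytosolic chaperonin TRiC and its partner prefoldin, which fold actin and tubulin, were counted against P6gonocyte in each adult group. Of 16 listed genes, 4 were higher and 7 lower in KITpos (27.3% and 21.8% of all genes), 1 higher and 10 lower in GFRA1pos (21.9% and 17.3%), and 1 higher and 9 lower in GFRA1neg (24.9% and 18.8%), with medians of -0.23, -0.52 and -0.49. Cct6a, for example, averaged 431 ± 90 CPM in KITpos, 405 ± 38 CPM in GFRA1pos, 423 ± 63 CPM in GFRA1neg and 862 ± 86 CPM in P6gonocyte. The gene higher in both Kit-negative groups was Cct6b, a testis form of that subunit, at 18.5, 12.3 and 18.2 CPM in KITpos, GFRA1pos and GFRA1neg against 1.89 CPM in P6gonocyte. It varied widely, from 1.77 to 25.7 CPM in GFRA1pos and from 7.86 to 41.3 CPM in GFRA1neg, against 1.08 to 2.50 CPM in P6gonocyte. Its highest values in these groups were in GFRA1pos replicate 4 and GFRA1neg replicate 2, both rich in spermatid markers (1081 and 2043 CPM). GFRA1pos replicate 2, with 2045 CPM of these markers, had 15.0 CPM of Cct6b against 25.7 CPM in replicate 4. In KITpos, replicate 3, not among the spermatid-rich libraries, had 24.0 CPM of Cct6b, and the spermatid-rich replicate 1 had 23.2 CPM. The part of spermatid RNA in the Cct6b level was not tested. Within the adult, 7 of the 16 were higher and 1 lower in KITpos than in GFRA1pos (24.9% and 23.7% of all genes). The median was 0.45 beside 0.07 over all genes. Against GFRA1neg, 5 were higher and 4 lower in KITpos (22.1% and 23% of all genes), with a median of 0.17 beside 0.03. Cct4 was at 339 ± 14 CPM in KITpos and 150.4 ± 20 CPM in GFRA1pos (1.17 ± 0.12, adjusted p = 1.57e-07).

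The mitochondrial list around Hspd1 and Hspe1 had 2 genes higher and 4 lower of 12 in KITpos against P6gonocyte, and 4 lower with the other 8 not called in each of GFRA1pos and GFRA1neg. Of all genes, 27.3% were higher and 21.8% lower in KITpos, and 17.3% and 18.8% were lower in GFRA1pos and in GFRA1neg, so the KITpos count is near its background. Hspa9, the mitochondrial HSP70, averaged 183 ± 6.3 CPM in KITpos, 178 ± 29 CPM in GFRA1pos, 190.4 ± 19 CPM in GFRA1neg and 285 ± 14 CPM in P6gonocyte, and was lower in each adult group, at -0.64, -0.68 and -0.58 (adjusted p = 0.000133, 0.000255 and 0.000649). In the endoplasmic reticulum, the HSP90 form Hsp90b1 was lower than P6gonocyte in KITpos, GFRA1pos and GFRA1neg at -0.92, -1.27 and -0.91 (adjusted p = 6.99e-05, 1.98e-05 and 0.000184). Its HSP70 partner Hspa5 (BiP) averaged 529.7 ± 86 CPM in KITpos, 293 ± 23 CPM in GFRA1pos, 329 ± 42 CPM in GFRA1neg and 527 ± 30 CPM in P6gonocyte, with KITpos and P6gonocyte not called apart (0.01 ± 0.12, adjusted p = 0.968). Of the 22 listed genes of that compartment, 5 were higher and 6 lower in KITpos, 1 higher and 8 lower in GFRA1pos, and 3 higher and 10 lower in GFRA1neg, against P6gonocyte. All genes were 27.3% higher and 21.8% lower in KITpos, near these counts, 21.9% and 17.3% in GFRA1pos, and 24.9% and 18.8% in GFRA1neg.

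Of the 46 J-domain genes tested besides Dnajb1, 2 were higher in GFRA1pos than in GFRA1neg and the other 44 were not called, where 14.1% of all genes were called. In KITpos 14 were higher and 8 lower than in GFRA1pos, near the 24.9% and 23.7% of all genes. Against P6gonocyte, 13 were higher and 8 lower in KITpos (27.3% and 21.8% of all genes). In GFRA1pos 10 were higher and 9 lower (21.9% and 17.3%), and in GFRA1neg 14 were higher and 14 lower (24.9% and 18.8%). The list medians against P6gonocyte were 0.22, -0.01 and 0.04 in KITpos, GFRA1pos and GFRA1neg, beside 0.09, 0.05 and 0.09 over all genes. Dnaja1, another J-domain partner of cytosolic HSP70, averaged 505 ± 126 CPM in KITpos, 444 ± 89 CPM in GFRA1pos, 446 ± 71 CPM in GFRA1neg and 1031 ± 61 CPM in P6gonocyte; it was lower in each adult group, at -1.03, -1.21 and -1.21 (adjusted p = 6.9e-05, 6.81e-05 and 4.39e-05), where Dnajb1 was higher or not called. Dnajc9, a chaperone of histones, was higher in KITpos at 139 ± 23 CPM than in GFRA1pos at 50.2 ± 4.6 CPM (1.47 ± 0.13, adjusted p = 4.46e-08).

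Some germ cell relatives of the members were far higher in the adult than in the neonatal cells. Hspa2 averaged 114 ± 57 CPM in KITpos, 94.3 ± 57 CPM in GFRA1pos, 167 ± 109 CPM in GFRA1neg and 18.9 ± 2.5 CPM in P6gonocyte. Hspa1l, which neighbours Hspa1a and Hspa1b in the genome, averaged 28.4 ± 13 CPM in KITpos, 59.1 ± 54 CPM in GFRA1pos, 63.0 ± 34 CPM in GFRA1neg and 2.80 ± 0.99 CPM in P6gonocyte, and was not called between GFRA1pos and GFRA1neg (-0.09 ± 0.52, adjusted p = 0.941). Among the small heat shock proteins, of which 6 of 10 listed genes were tested, Odf1 of the sperm tail was at 36.7, 78.4 and 95.9 CPM in KITpos, GFRA1pos and GFRA1neg and at 0.496 CPM in P6gonocyte. These genes varied widely within the adult groups, and the summed spermatid markers varied there as well, from 448 to 1496 CPM in KITpos, 90.4 to 2045 CPM in GFRA1pos and 451 to 2043 CPM in GFRA1neg, against 11.7 to 16.9 CPM in P6gonocyte. Odf1 is itself among the spermatid markers, so its own level enters that sum, and Hspa2 is among the spermatocyte markers. The part of spermatid RNA in these levels was not tested.

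Immediate early genes respond within minutes to growth signals and to stress. Of 17 tested, 9 were higher in GFRA1pos than in GFRA1neg and 8 were not called, where 7.3% of all genes were higher, with a median log2 fold change of 0.90 beside -0.04 over all genes, whereas Hspa1a and Hspa1b were lower in that comparison. The transcription factor gene Egr2, for one, averaged 3.50 ± 1.5 CPM in KITpos, 216 ± 22 CPM in GFRA1pos, 11.0 ± 1.9 CPM in GFRA1neg and 70.5 ± 11 CPM in P6gonocyte. In KITpos 12 were lower than in GFRA1pos and 5 not called, where 23.7% of all genes were lower. In that comparison Hspa1a and Dnajb1 were lower too, but Hsp90aa1, Hspb1 and Hspe1 were higher.

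**Figure D5:**
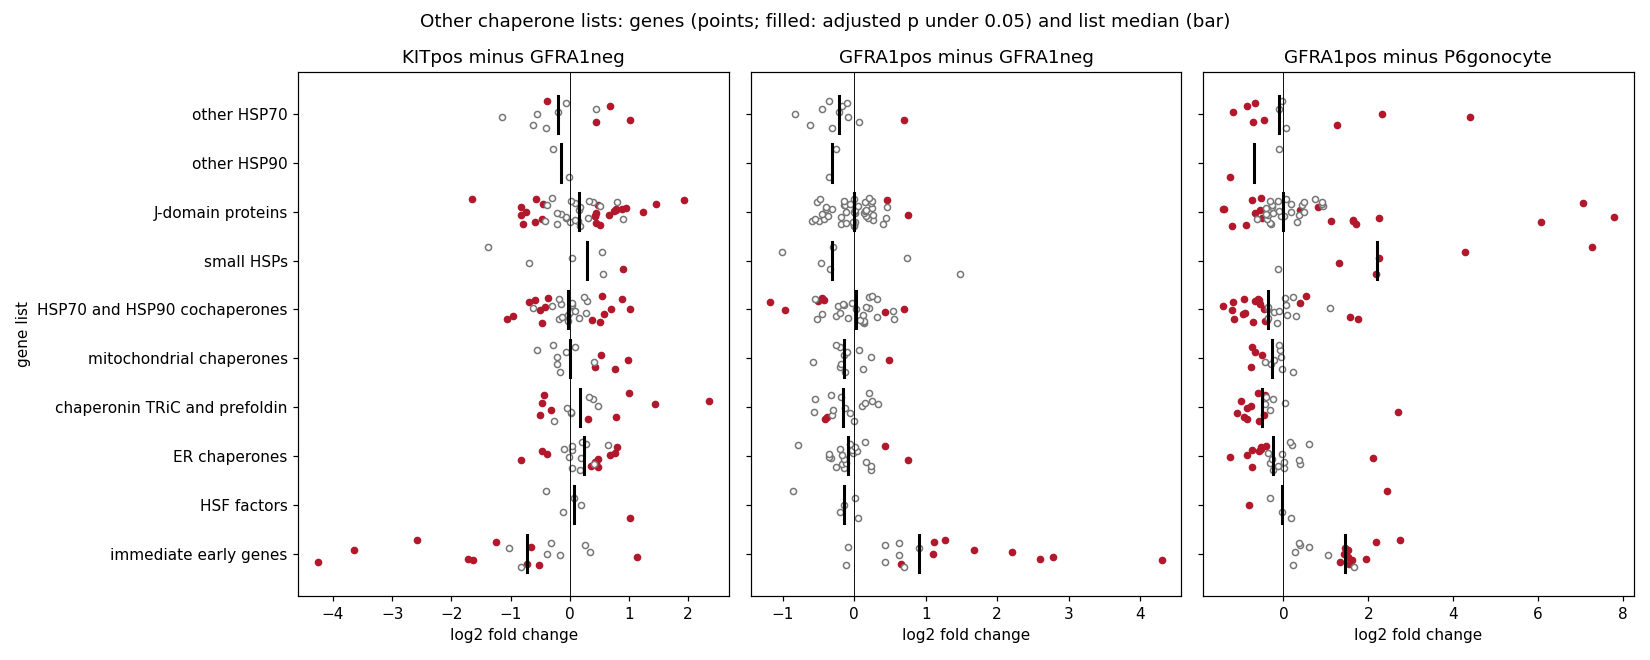
Log2 fold change of each tested gene in 10 lists around the members, for KITpos minus GFRA1neg, GFRA1pos minus GFRA1neg and GFRA1pos minus P6gonocyte (1 point per gene, filled where edgeR's adjusted p was under 0.05; bar, list median). Horizontal axes differ between panels; in GFRA1pos minus P6gonocyte the TRiC and prefoldin median lies at -0.52, and in GFRA1pos minus GFRA1neg the immediate early median lies at 0.90.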

How the data were processed

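RNA of sorted testis cells (5 to 10 ng) was amplified and sequenced as paired 101 bp reads, per the labels' protocols. The authors deposited raw whole-number counts per gene; nothing in the values shows a normalization. The submitters' processing notes name mm9, Trim Galore, TopHat2 2.0.4, Bowtie2 2.0.0-6, Bowtie, DESeq and DESeq2 without their roles; how reads were counted, with which annotation and whether by strand, is not given in the sources used here, so reads of overlapping genes or near copies may be split or lost. One column header, GFPa1pos_1, was taken for GFRA1pos replicate 1. Symbols were matched by Entrez number for 23930 of 24013 rows (RefSeq table of GRCm38.p6, names only); 83 had none.

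The main test was the quasi-likelihood test of edgeR 4.0.16 (R 4.3.3), fitted to all 17 libraries with 1 mean per group (TMM, filterByExpr, Benjamini-Hochberg over 15451 genes, adjusted p under 0.05; common biological coefficient of variation 0.30) and the step was tested on simulated data. The standard error is the absolute log2 fold change over the square root of F. Alternatives were RLE and upper-quartile scaling, other count filters, DESeq2 1.42.0, limma 3.58.1 voom with and without sample weights, glmTreat at a fold of 1.5, only 2 groups fitted, the replicate number as a block, Hspa1a and Hspa1b summed, the most abundant row left out, and each library left out; dropping the 4 spermatid-rich libraries (KITpos 1, GFRA1pos 2 and 4, GFRA1neg 2) was added after the data were seen. Shared windows and transcript lengths came from GENCODE vM21. The members and gene lists were chosen with earlier results of these data known; all members are named, up to 3 listed genes per list and comparison by smallest adjusted p, with examples that did not pass, and the 5 nearest patterns of Hspa1a, Hspa8 and Hspd1. Labels name no batch, date or animal. Binomial intervals cover counting error only, since reads carried no molecular identifiers. Figures were drawn with matplotlib 3.10.9.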

Additional observations from a re-analysis of the deposited data

Results flagged for a closer look

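Of 48 sets of replicate values tested for a single library far from its group, 7 were picked out, and chance alone picks about 1 in 20. P6gonocyte replicate 2 was the far library for 3 genes, with 5222 CPM of Hspa8 (the other 3 from 3840.1 to 4072 CPM), 3389 CPM of Hsp90ab1 (the others from 2501 to 2646 CPM) and 5.41 CPM of Hspb1 (the others from 1.81 to 2.34 CPM); it is also the library with 486 CPM of summed Sertoli cell markers, and their part in these levels was not tested. KITpos replicate 2 was high for Hsp90ab1, at 2226 CPM against 1758 to 1801 CPM in the other 4. KITpos replicate 5 was high for Dnajb1, at 119 CPM against 81.1 to 90.3 CPM in the others. GFRA1neg replicate 2, a library rich in spermatid markers (2043 CPM), was low for Hspa8, at 1939 CPM against 2526 to 2607 CPM. P6gonocyte replicate 3 had the lowest share of Hspa1a among the counts of Hspa1a and Hspa1b in its group, 53.9% against 57.1% to 57.8% in the others, which lie inside its exact binomial interval from 45.7% to 61.9%.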

How the results depend on the processing

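Of 60 member results, 34 were called. Of these, 12 kept the call under every alternative, 22 lost it under at least 1, and none changed sign. Some of the 22 lost it only under the fold threshold of 1.5, such as Hspa8, Hsp90aa1 and Hsp90ab1 for KITpos minus P6gonocyte. Among the uncalled results, 5 gained a call. The number of members called stayed within 1.5 times except as follows. With a fold threshold of 1.5 it was 1 for KITpos minus GFRA1pos, 3 for KITpos minus GFRA1neg, 1 for KITpos minus P6gonocyte and 4 for GFRA1neg minus P6gonocyte; this test asks for a larger change. With Hspa1a and Hspa1b summed it was 1 for GFRA1pos minus GFRA1neg, by construction. With the 4 spermatid-rich libraries dropped it was 2 for KITpos minus GFRA1pos and 1 for GFRA1pos minus GFRA1neg, in a fit of fewer libraries. With each library left out in turn it ran from 3 (without GFRA1pos replicate 3) to 6 for KITpos minus GFRA1pos, 6 to 7 for KITpos minus GFRA1neg, 2 to 2 for GFRA1pos minus GFRA1neg, 5 to 6 for KITpos minus P6gonocyte, 5 to 7 for GFRA1pos minus P6gonocyte and 8 to 9 for GFRA1neg minus P6gonocyte.

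The labels give no meaning to the replicate numbers, and no pair of groups had every same-numbered correlation of deviations over 0.1, so they were not taken as pairs. GFRA1pos and GFRA1neg came nearest, with 3 of 4 over 0.1 (0.37 to 0.52, and 0.03 for number 4); other pairs of groups ran from -0.46 to 0.27, and 7 of 17 libraries correlated best with their own number. With the replicate block the counts were 6, 6, 2, 6, 8 and 9 in the order above. Uncalled values near 0 changed sign: for KITpos minus GFRA1pos, Hspa1b (-0.0839 without the spermatid-rich libraries; -0.00436 to 0.44 with a library left out) and Hspd1 (-0.0869 to 0.0941); for GFRA1pos minus GFRA1neg, Hspa8 (-0.195 to 0.00524), Hsp90ab1 (0.0173 with no count filter, 0.0212 without the spermatid-rich libraries, -0.118 to 0.0580) and Hspb1 (0.0173 with no count filter, 0.0288 with the replicate block, 0.19 with voom sample weights, 0.37 without the spermatid-rich libraries, -0.63 to 0.19); for KITpos minus P6gonocyte, Hspb1 (-0.12 with the replicate block, -0.0191 without the spermatid-rich libraries, -0.16 to 0.54) and Dnajb1 (-0.0196 with the replicate block, -0.0318 to 0.12). The cause was not tested. The largest move of the median of all genes under another scaling was -0.0541 (RLE, KITpos minus GFRA1pos). Depth limits Hspa1a, Hspa1b and Hspb1 most, with as few as 2 Hspa1a counts in KITpos replicate 5.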

Other observations

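In the endoplasmic reticulum, folding genes were called in both directions between KITpos and the Kit-negative cells. Pdia6, a protein disulfide isomerase, averaged 105 CPM in KITpos, 60.9 CPM in GFRA1pos and 60.5 CPM in GFRA1neg, and was called higher in KITpos than in each (0.78 and 0.79; adjusted p = 5.11e-05 and 4.9e-05). Dnajc10, which reduces disulfides there, averaged 51.1 CPM in KITpos, 151 CPM in GFRA1pos and 89.9 CPM in GFRA1neg, was lower in KITpos than in each (-1.57 and -0.82; adjusted p = 6.82e-08 and 0.000139), and was higher in GFRA1pos than in GFRA1neg (0.75, adjusted p = 0.00228). Pfdn4, a prefoldin subunit, averaged 24.7 CPM in KITpos, 5.68 CPM in GFRA1pos, 4.80 CPM in GFRA1neg and 11.4 CPM in P6gonocyte and was called higher in KITpos than in each of the others (2.12, 2.36 and 1.12; adjusted p = 1.73e-06, 6.3e-07 and 0.00107). Hsf5, a heat shock factor gene of meiotic germ cells, averaged 54.0 CPM in KITpos, 39.5 CPM in GFRA1pos and 71.6 CPM in GFRA1neg against 7.26 CPM in P6gonocyte. Of 9 spermatocyte markers, 7 were higher than P6gonocyte in each adult group, while 2 were lower in GFRA1pos. The part of spermatocyte RNA in the Hsf5 level was not tested.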
